A study of Mus musculus with 60 samples.

Results

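The transcription factors and markers of naive pluripotency measured here were Klf2, Klf4, Klf5, Esrrb, Tbx3, Tfcp2l1, Nr0b1, Zfp42 and Fbxo15. They were found as the probe sets whose annotated gene symbol is exactly 1 of these 9 names, which gave 20 probe sets, 15 on the MOE430A array and 5 on the MOE430B array. Of the 9 genes, 4 were above the detection limit often enough to enter the tests, among 13181 genes tested in all. The samples were undifferentiated embryonal carcinoma cells, stem-like tumour cells that came from a male C3H mouse embryo. They were of 6 strains, P19, its subclone P19CL6, and the sublines CL6G26, CL6G36, CL6G45 and CL6G52 of P19CL6, all kept in alpha-MEM with 10% FCS and given no treatment that the labels record. Each strain had 5 replicates labelled as biological, and each replicate was read on both array types, which made 60 arrays. The labels do not state whether replicates were separate cultures, nor what the sublines were made for. P-values therefore measure the spread between these samples, which may be technical, and each strain stands for a single line.

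Naive pluripotency is the state of the preimplantation epiblast and of mouse embryonic stem cells grown with leukaemia inhibitory factor (LIF). LIF acts through its receptor Lifr and the shared subunit Il6st to activate Stat3, which induces Klf4 and Tfcp2l1, while Wnt signalling lifts repression by Tcf7l1 from Esrrb, Klf2 and Tfcp2l1. The Krüppel-like factors, Esrrb, Tbx3, Nr0b1 and Tfcp2l1 sustain each other and the core factors Pou5f1, Sox2 and Nanog. Zfp42 (Rex1) and Fbxo15 are readouts of the state and are dispensable for it. As the epiblast implants, this group is shut down while Pou5f1 and Sox2 persist and genes such as Fgf5 and Otx2 take over. P19 cells were derived from a tumour grown from a transplanted postimplantation embryo.

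Several arrays did not lie with the strain they are labelled as. By correlation of profiles after centring, 27 of 30 MOE430A arrays and 26 of 30 MOE430B arrays were nearest the mean of their own strain. On both array types P19 replicates 4 and 5 were nearest P19CL6, and CL6G52 replicate 1 was nearest CL6G45. On MOE430B, CL6G26 replicate 5 was nearest P19. The P19 replicates 4 and 5 correlated with P19CL6 at 0.40 and 0.30 on MOE430A, against 0.11 and 0.08 with P19. On MOE430B all these were near 0, at 0.016 and 0.025 against -0.011 and -0.026, so MOE430B adds little there. Calls that change without P19 replicates 4 and 5 or CL6G52 replicate 1 are given beside the results. P19 replicates 4 and 5 were singled out for lying nearest P19CL6, so leaving them out favours larger differences between these strains. In P19CL6 against P19, 4.46% of all genes passed with them and 19.6% without them. Results without them describe the arrays kept and cannot stand as tests of P19. Leaving out P19 replicate 1, 2 or 3 instead left 0 of 13181 genes called in this comparison. With the 2 strains fitted alone 0 were called as well, and with signals left as deposited 48. Every gene call given below for P19CL6 against P19 over all replicates is thus lost when any 1 of replicates 1 to 3 is left out. Median signals of the MOE430A arrays lay between 30.2 and 53.4 and those of the MOE430B arrays between 10.6 and 16.5; precision is limited by how many arrays there are. All 8 embryonal carcinoma markers measured, Pou5f1, Nanog, Sox2, Utf1, Tdgf1, Lin28a, Dnmt3b and Sall4, were above the detection limit on all 30 arrays of their type.

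Promoter sequences were available for 6 of the 9 genes, and 3 are shown as examples of genes that the arrays read in different ways. Nr0b1 was bright on 3 arrays. Klf2 was above the limit on every array of P19 and P19CL6 and on 2 of 5 in each subline. Zfp42 was never above it. Each is the stretch of 250 bases before the RefSeq gene start on build GRCm38.p6, 5′ to 3′ on the gene's strand. Capitals mark matches, on either strand, to 6 motifs: the octamer ATGCAAAT, the nuclear receptor half-site AGGTCA, the STAT site TTCNNNGAA, the CACCC box CCACCC, the GC box GGGCGG and the TATA box TATAAA.
Nr0b1 chrX:86191525-86191774 (+): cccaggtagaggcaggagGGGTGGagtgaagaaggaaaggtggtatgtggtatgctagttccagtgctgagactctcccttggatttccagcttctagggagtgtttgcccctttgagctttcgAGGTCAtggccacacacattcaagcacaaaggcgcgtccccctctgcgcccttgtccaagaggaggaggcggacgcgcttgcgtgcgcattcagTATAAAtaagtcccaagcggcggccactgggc
Klf2 chr8:72318812-72319061 (+): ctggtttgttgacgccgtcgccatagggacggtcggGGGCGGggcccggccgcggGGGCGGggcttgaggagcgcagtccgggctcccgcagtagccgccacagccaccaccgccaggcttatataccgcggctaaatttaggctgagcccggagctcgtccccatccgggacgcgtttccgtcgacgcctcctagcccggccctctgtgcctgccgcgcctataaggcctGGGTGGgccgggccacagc
Zfp42 chr8:43307010-43307259 (-): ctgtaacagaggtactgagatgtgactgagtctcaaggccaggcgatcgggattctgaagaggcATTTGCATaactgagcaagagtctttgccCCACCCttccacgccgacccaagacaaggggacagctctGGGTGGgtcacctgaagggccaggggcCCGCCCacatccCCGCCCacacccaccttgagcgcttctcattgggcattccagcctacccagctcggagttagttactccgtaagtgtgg
The Nr0b1 stretch holds a TATA box that begins 32 bases before the start, a nuclear receptor half-site at 126 and a CACCC box on the other strand at 232. That of Klf2 holds GC boxes at 214 and 195 and a CACCC box on the other strand at 19, with 71.2% G and C and 29 CpG. The Zfp42 stretch holds the octamer on the other strand at 186, a CACCC box at 157 and another on the other strand at 118, and GC boxes on the other strand at 91 and 79. No 2 of the matches in these 3 stretches overlap. Among 32851 promoters of the same length, the octamer was in 1.6%, the half-site in 14.02%, the STAT site in 7.02%, the CACCC box in 28.08%, the GC box in 32.74% and the TATA box in 12.37%. The median promoter held 52.4% G and C and 6 CpG. A match is a string of letters and not a site shown to be used.

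Readings of the naive factors were mostly under the detection limit, and 4 genes, Klf2, Klf5, Esrrb and Tbx3, were above it on all 5 arrays of some strain. The limit, called the floor here, was the 40th percentile of an MOE430A array and the 60th of an MOE430B array, a log2 signal of 4.61 and 4.14 after normalization. Of 600 readings of the 20 probe sets, 155 were above the floor, and 9 probe sets were above it on no array. Taking for each gene the probe set most often above the floor, Esrrb was above it on 30 of 30 arrays, Klf5 on 27, Tbx3 on 25 and Klf2 on 18. Nr0b1 and Fbxo15 were above it on 3 each, Tfcp2l1 on 1, and Klf4 and Zfp42 on 0. With the floor set 10 percentiles lower, Fbxo15 was above it on 18 arrays, Klf4 on 10, Tfcp2l1 on 6, Nr0b1 on 4, Klf2 and Tbx3 on 29 each and Zfp42 on 0. A low signal in bulk RNA does not tell fewer cells with a transcript from less transcript in each cell.

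**Figure D1:**
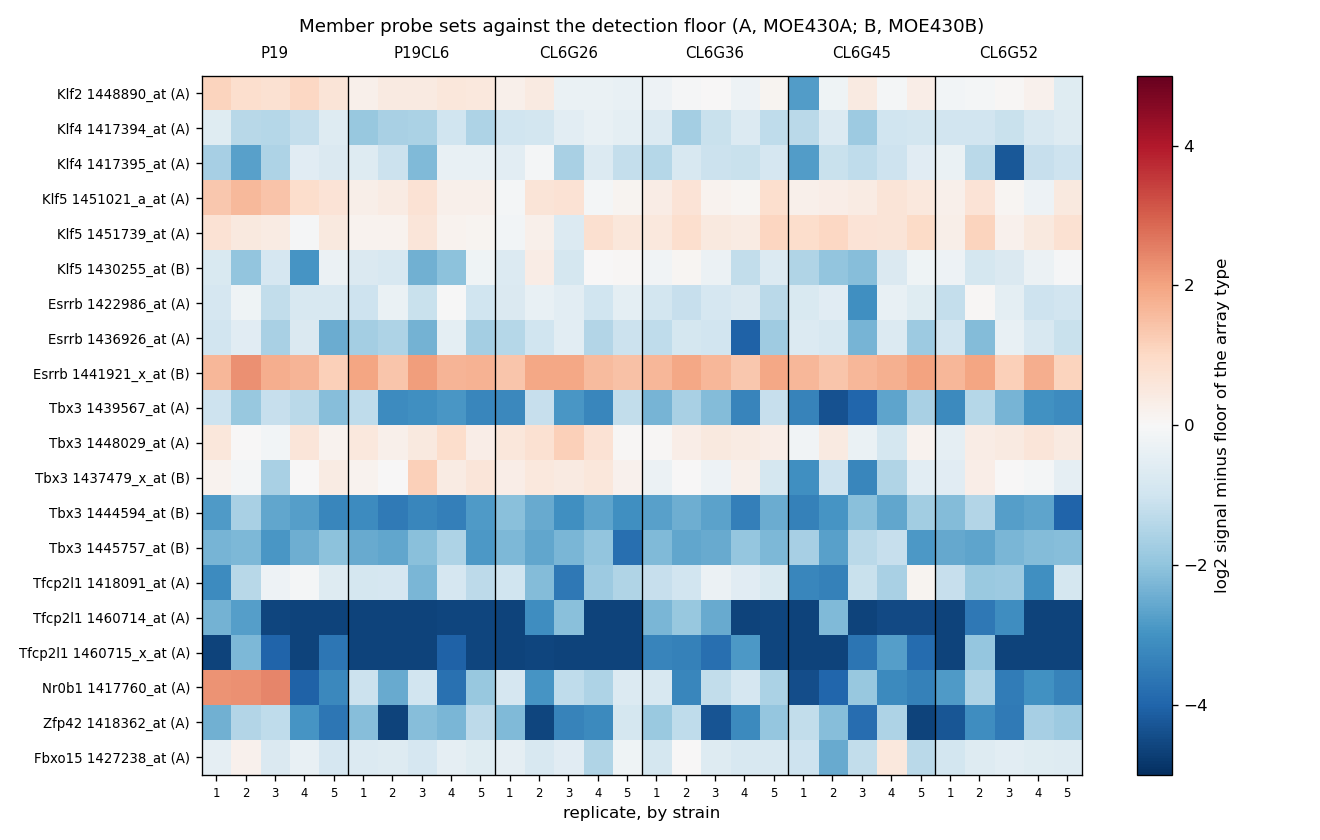
Each cell is the log2 signal of a probe set (rows) on an array (columns, 5 replicates in each of 6 strains) minus the floor of its array type, red above and blue below. Only the Esrrb probe set 1441921_x_at is red throughout, Klf5, Tbx3 and Klf2 are pale red on part of the arrays, and Nr0b1 is red in P19 replicates 1 to 3.

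Beside all genes, few of the 9 were read throughout. Of them 1 (11.1%) was above the floor on all 30 arrays, against 8697 of 18193 genes with a probe set (47.8%). On no array were 2 of the 9 (22.2%) above it, against 3302 of 18193 genes (18.1%), so the share of genes that were never read was close to that of all genes. The core factors, all 3 of them, and all 8 measured regulators that restrain the naive network were above the floor on every array. So were 16 of 20 genes of the primed and formative epiblast and 7 of 10 genes of LIF and STAT3 signalling, among them Lifr, Il6st, Jak1 and Stat3. Gbx2, a STAT3 target, was never above the floor, nor was Pecam1, a surface protein of naive cells, the only one never read among 14 other naive network genes.

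**Figure D2:**
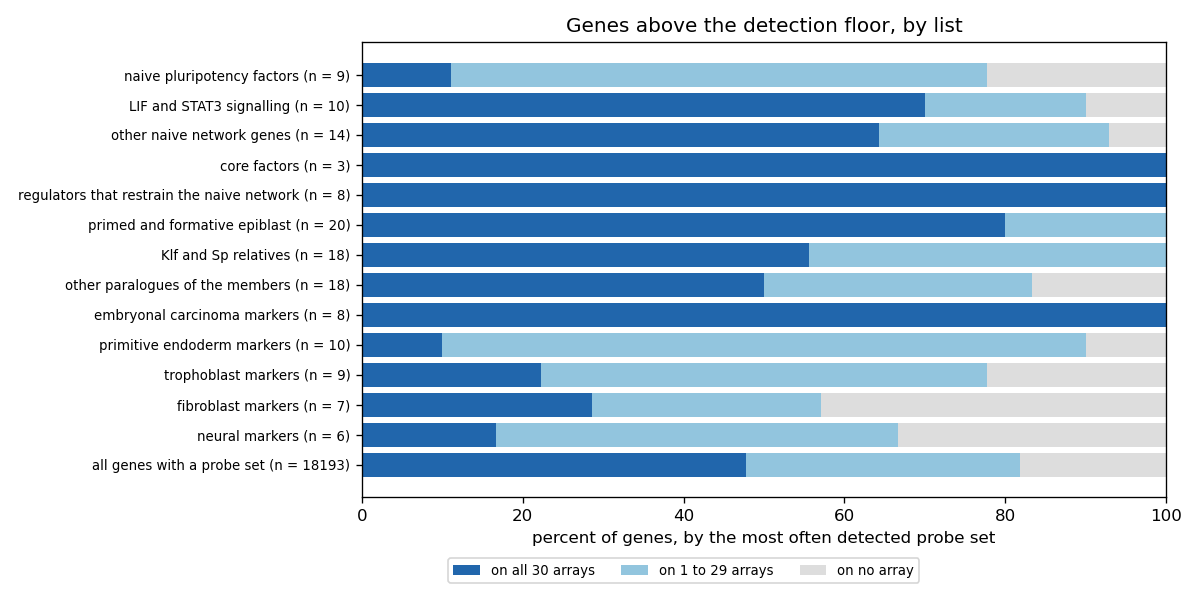
Bars give, for each gene list, the percent of its genes above the floor on all 30 arrays (dark), on 1 to 29 arrays (pale) or on no array (grey), by the probe set most often above it. The naive pluripotency factors have 11.1% of genes on all arrays, and the core factors, the restraining regulators and the embryonal carcinoma markers have every measured gene there.

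Klf2 is a Krüppel-like zinc finger factor that lies downstream of Mek and Erk signalling, which destabilises its protein. Its single probe set, 1448890_at, gave log2 signals of 5.72, 5.46, 5.36, 5.64 and 5.28 in P19 replicates 1 to 5. In P19CL6 they were 4.87, 5.06, 5.05, 5.20 and 5.13. Every P19 array was thus above every P19CL6 array, P19 replicates 4 and 5 included, and every array of both strains was above the floor. In each subline the probe set was above the floor on 2 of 5 arrays. CL6G26 gave 4.88, 5.07, 4.29, 4.28 and 4.25, and CL6G36 gave 4.36, 4.56, 4.63, 4.37 and 4.75. CL6G45 gave 1.80, 4.42, 5.08, 4.52 and 4.96, and CL6G52 gave 4.49, 4.51, 4.66, 4.83 and 4.01. The arrays of CL6G36 and CL6G52 lay under all 5 of P19CL6, and those of CL6G26 and CL6G45 overlapped them. The difference of P19CL6 from P19 was -0.43 ± 0.36 (SE, log2; limma, adjusted p = 0.519), which did not pass. With signals under the floor raised to it, the difference was the same -0.43 and the adjusted p was 0.0172; over all alternatives the adjusted p ran from 0.0172 to 0.835, and without P19 replicates 4 and 5 the difference was -0.45. The differences of the sublines from P19CL6 ran from -0.91 in CL6G45 (adjusted p = 0.0784) to -0.51 in CL6G26 (adjusted p = 0.627), and none passed. CL6G45 replicate 1, at 1.80, decides the size there, and without replicate 1 the difference was -0.32. Without CL6G45 replicate 3 or 5 the differences were -1.14 and -1.11 and passed (limma, adjusted p = 0.0330 and 0.0411).

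Klf4, a STAT3 target and a reprogramming factor, was under the floor on every array. Its probe set 1417394_at ran from 2.73 to 4.24 and 1417395_at from 0.39 to 4.51.

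Klf5 binds many of the same GC-rich sites as Klf2 and Klf4 and is needed for the first lineages of the embryo. Its mean was highest in P19 by 1 probe set and not by the other. Probe set 1451021_a_at, read for the gene, gave 5.96, 6.25, 6.04, 5.48 and 5.31 in P19 and 4.92, 5.03, 5.32, 4.89 and 4.87 in P19CL6. The strains overlapped narrowly, with P19 replicate 5 at 5.31 against P19CL6 replicate 3 at 5.32. P19 replicates 1 to 3 were above every other array. The sublines lay where P19CL6 lay, from 4.51 to 5.33 in CL6G26, 4.71 to 5.45 in CL6G36, 4.85 to 5.26 in CL6G45 and 4.34 to 5.31 in CL6G52. Klf5 fell by 0.80 ± 0.20 (SE, log2) in P19CL6 against P19 (limma, adjusted p = 0.0211). The difference without P19 replicates 4 and 5 was -1.08 ± 0.22 (limma, adjusted p = 0.0005). Those replicates were the lowest of P19 here, so this comparison cannot stand as a test of P19. The call was lost without P19 replicate 1, 2 or 3 (adjusted p = 0.0879, 0.101 and 0.0914), with the deposited scaling (0.151) and with the 2 strains fitted alone (0.194). It was also lost with the mean of the probe sets (-0.48, adjusted p = 0.0762). Without P19 replicate 1, 2 or 3, limma called 0 of the 13181 genes in this comparison, with 1945, 1992 and 1918 at an unadjusted p under 0.05.

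The other Klf5 probe set tested, 1451739_at, gave 5.35, 5.11, 5.01, 4.57 and 5.08 in P19 and 4.77, 4.79, 5.22, 4.79 and 4.73 in P19CL6. These overlapped, with a difference of -0.16 ± 0.22 (limma, adjusted p = 0.714), so the probe sets disagree on the size. Leaving out P19 replicates 4 and 5 gave -0.29 (limma, adjusted p = 0.436). In CL6G45 it gave 5.49, 5.65, 5.30, 5.26 and 5.58, all above P19CL6. The difference of 0.60 ± 0.22 did not pass (limma, adjusted p = 0.0563). It passed under 9 of 42 alternatives and not under the other 33 (limma, adjusted p from 0.0132 to 0.212). Those that passed included signals raised to the floor (0.0146), the compared strains alone (0.0132) and leaving out P19 replicates 4 and 5 (0.0487). The first probe set showed 0.04 in CL6G45 (limma, adjusted p = 0.935). The probe set of Klf5 on MOE430B, 1430255_at, was above the floor on 3 of 30 arrays.

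**Figure D3:**
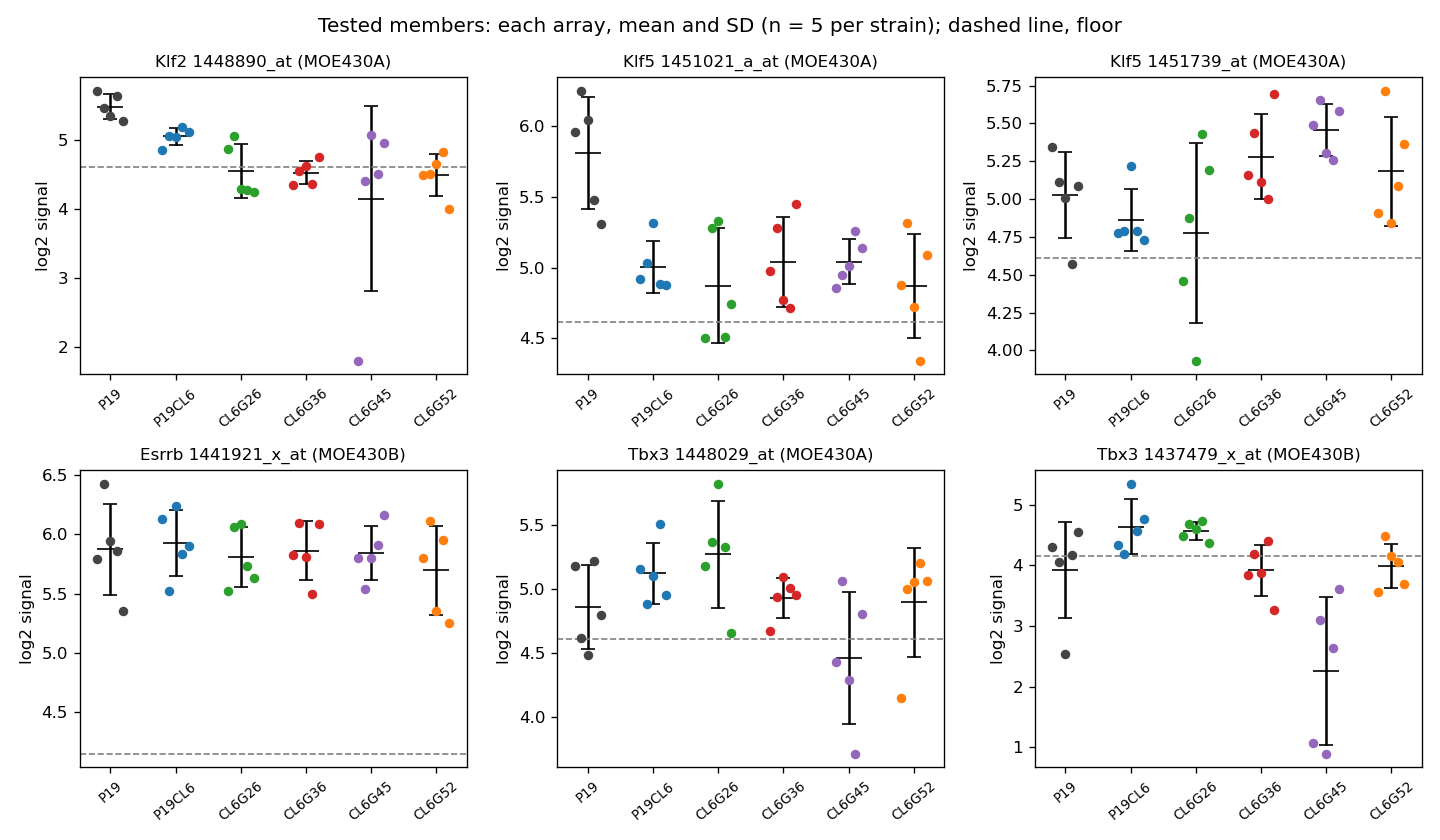
Points are log2 signals of the 6 tested probe sets on single arrays, bars the mean and SD of 5 arrays per strain, and the dashed line the floor; the vertical axes differ between panels and do not start at 0. P19 is highest for Klf2 and for Klf5 1451021_a_at, Esrrb overlaps in all strains, and CL6G45 is lowest for both Tbx3 probe sets.

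Esrrb is an orphan nuclear receptor, repressed by Tcf7l1 and able to stand in for Nanog. It was the 1 gene of the 9 above the floor on every array. Probe set 1441921_x_at on MOE430B gave 5.79, 6.43, 5.95, 5.86 and 5.35 in P19 and 6.13, 5.52, 6.24, 5.83 and 5.90 in P19CL6. CL6G26 lay from 5.52 to 6.09, CL6G36 from 5.49 to 6.10, CL6G45 from 5.54 to 6.17 and CL6G52 from 5.25 to 6.12. All 6 strains overlapped, and in the order of their means, from 5.92 in P19CL6 to 5.70 in CL6G52, no neighbours were apart. The largest difference in the 5 comparisons was -0.23 ± 0.19 (SE, log2) in CL6G52 (limma, adjusted p = 0.758). The SE was 0.19 in each comparison, and a p over the threshold does not show equal levels. P19CL6 was 0.05 over P19, and 0.13 under it without P19 replicates 4 and 5, neither of which passed. The _x_at suffix marks a probe set that can also bind other transcripts. The MOE430A probe sets 1422986_at and 1436926_at were above the floor on 1 and 0 of 30 arrays, so the reading on every array rests on 1441921_x_at alone.

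Nr0b1 (Dax1) is an orphan nuclear receptor without a DNA-binding domain of the usual kind that binds Pou5f1 and Esrrb proteins. It split the P19 replicates. Probe set 1417760_at gave 6.85, 6.91 and 7.06 in the first 3 P19 replicates, but 0.57 and 1.38 in replicates 4 and 5. The first 3 are 4.70-fold, 4.90-fold and 5.46-fold over the floor. P19CL6 gave 3.55, 2.11, 3.67, 0.90 and 2.71, and the highest of the other 27 arrays was 3.93, under the floor. With 3 arrays above the floor the gene did not enter the tests. The means of the 5 P19 and 5 P19CL6 arrays differed by 1.97, with a two-sided exact permutation p = 0.206, where the smallest that 252 permutations can give is 0.00794. With signals raised to the floor the difference was 1.40 and the exact permutation p = 0.167. Under an added filter that admits genes above the floor on 3 arrays, chosen after the values were seen, P19CL6 differed from P19 by -1.97 (limma, adjusted p = 0.251). With that filter and without P19 replicates 4 and 5 it differed by -4.35 ± 0.76 (limma, adjusted p = 7.43e-05). This last comparison leaves out the replicates in which the gene was low, and so cannot stand as a test of P19. P19 replicates 4 and 5 are those nearest P19CL6 across all genes, and their part in the result was not tested otherwise.

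**Figure D4:**
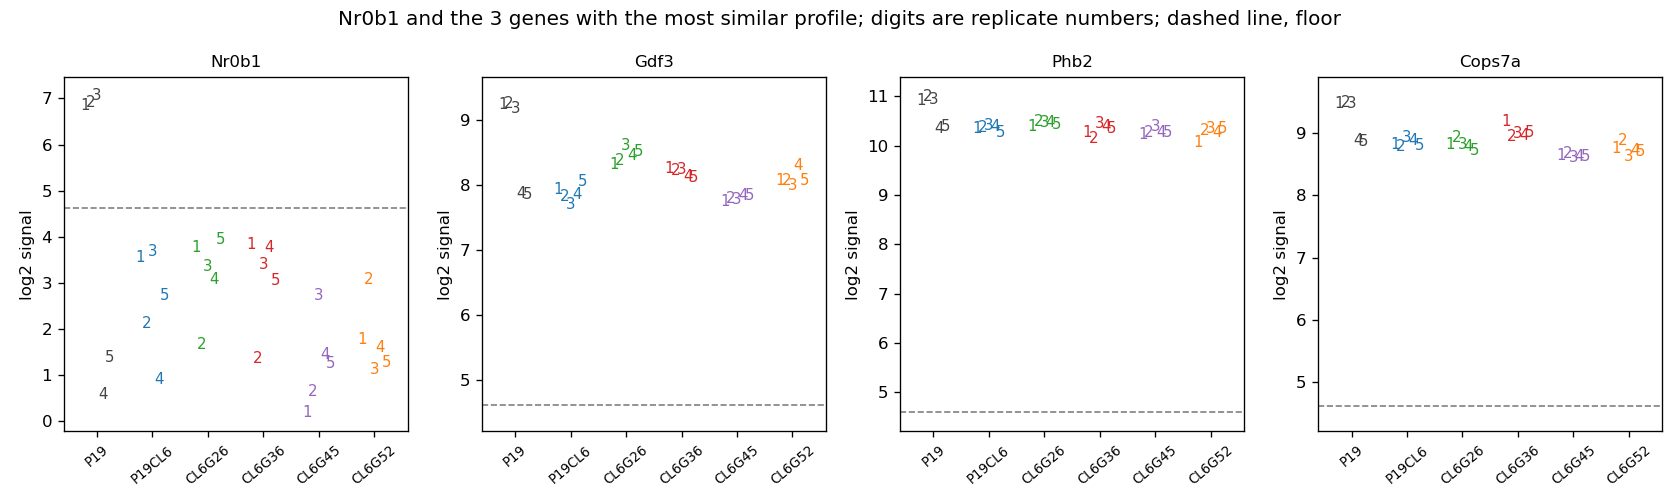
Digits are replicate numbers at the log2 signal of Nr0b1 and of the 3 genes whose profile over the 30 MOE430A arrays is most like it, by strain, with the floor dashed and a vertical axis for each panel. P19 replicates 1 to 3 stand at 6.85 to 7.06 for Nr0b1 and above the other arrays for Gdf3, Phb2 and Cops7a, while P19 replicates 4 and 5 lie with the rest.

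Tbx3 is a T-box repressor that links PI3K signalling to Nanog and, at high levels, drives cells towards primitive endoderm. It was lower in CL6G45 than in P19CL6 by both tested probe sets. Probe set 1437479_x_at on MOE430B gave 4.34, 4.18, 5.34, 4.56 and 4.76 in P19CL6 and 1.07, 3.09, 0.89, 2.64 and 3.61 in CL6G45. All CL6G45 arrays were under the floor and all P19CL6 arrays were above it. CL6G26 was also above the floor on all 5 arrays, at 4.48, 4.67, 4.60, 4.72 and 4.36. P19 gave 4.30, 4.06, 2.54, 4.17 and 4.55, CL6G36 3.85, 4.18, 3.87, 4.40 and 3.27, and CL6G52 3.57, 4.48, 4.15, 4.05 and 3.69, with some arrays on each side of the floor. By 1437479_x_at, Tbx3 in CL6G45 was at least 1.41-fold lower than in P19CL6, the mean of P19CL6 against the floor. This bound holds for that probe set alone, and its _x_at suffix marks one that can also bind other transcripts. The measured difference was -2.38 ± 0.43 (SE, log2; limma, adjusted p = 0.000989), and it passed under all 42 alternatives (adjusted p from 0.00025 to 0.0469). The size rests on signals under the floor: raised to the floor, the difference was -0.49.

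On MOE430A, Tbx3 probe set 1448029_at gave 5.16, 4.89, 5.10, 5.51 and 4.96 in P19CL6 and 4.43, 5.07, 4.30, 3.72 and 4.81 in CL6G45. The strains overlapped, with 2 of 5 CL6G45 arrays above the floor. Tbx3 fell there by 0.66 ± 0.23 (limma, adjusted p = 0.0479), a call lost under 24 of 42 alternatives (adjusted p from 0.0196 to 0.404), 18 of which leave out 1 replicate. These were P19CL6 replicates 1, 3, 4 and 5, CL6G26 1, 2 and 4, CL6G36 2, 3, 4 and 5, CL6G45 1, 3 and 4, and CL6G52 2, 3, 4 and 5. With signals raised to the floor the difference by 1448029_at was -0.38 and did not pass (limma, adjusted p = 0.108). CL6G26 gave 5.18, 5.37, 5.82, 5.33 and 4.66, the highest mean at 5.27, and P19 gave 5.18, 4.62, 4.49, 5.22 and 4.80. CL6G36 lay from 4.68 to 5.09 and CL6G52 from 4.15 to 5.21. Neighbours in the order of strain means overlapped at every step for both probe sets. Among the 4 sublines the range of means was 2.31 for 1437479_x_at (limma F test, adjusted p = 0.00255; with signals raised to the floor 0.42 and 0.162, which did not pass) and 0.81 for 1448029_at (limma F test, adjusted p = 0.0516, and 0.0209 without CL6G52 replicate 1). In CL6G52 the difference of 1448029_at from P19CL6 was -0.23, and -0.04 without CL6G52 replicate 1. The other Tbx3 probe sets, 1439567_at, 1444594_at and 1445757_at, were above the floor on no array.

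Other markers moved in CL6G45 as well, where 13.3% of all genes passed against P19CL6. Of 6 tested primitive endoderm markers 0 rose and 2 fell against P19CL6, Foxa2 by 1.38 and Gata6 by 0.60 (log2). Of 7 tested trophoblast markers 0 rose and 3 fell, Krt8 by 0.97, Krt18 by 0.95 and Cdx2. Cdx2 was above the floor on 3 of 5 P19CL6 arrays, with a mean 1.30-fold over it, and on 0 of 5 CL6G45 arrays. The measured difference of Cdx2 was -2.16 (limma, adjusted p = 0.0226), and its size rests on signals under the floor. Most of these falls were also seen in CL6G36 and CL6G52, where Tbx3 did not pass. There Foxa2 fell by 1.99 and 1.89, Krt8 by 0.84 and 1.03, and Krt18 by 0.84 and 0.91. Cdx2 was above the floor on 0 of 5 arrays of each. Its measured differences passed there (limma, adjusted p = 0.000554 and 0.00782), and their size rests on signals under the floor. Gata6 fell by 0.69 in CL6G36 and did not pass in CL6G52 (-0.51, limma, adjusted p = 0.118). The mean of the 10 primitive endoderm markers over the floor ran from -0.78 to 0.19 on P19CL6 arrays and from -0.76 to 0.01 on CL6G45 arrays, and that of the 9 trophoblast markers from 0.15 to 0.79 and from -0.16 to 0.43. Lama1, Elf5 and Krt7 were never above the floor. The 3′ to 5′ signal ratio of Gapdh, a measure of RNA integrity, was 0.829 to 0.878 in P19CL6 and 0.774 to 0.831 in CL6G45 on MOE430B. In CL6G36 and CL6G52 this ratio was 0.801 to 0.864 and 0.767 to 0.837. The part of these in the Tbx3 result was not tested. For Klf5 the same ratio on MOE430A was 0.908 to 0.954 in P19 and 0.835 to 0.887 in P19CL6, with no overlap. In P19CL6 against P19, 1 of 7 tested trophoblast markers rose, Gata3 (1.96, limma, adjusted p = 0.0323), and 1 of 3 tested fibroblast markers fell, Col1a2 (-0.73, adjusted p = 0.0122). Gata3 was above the floor on 2 of 5 P19 arrays, and with signals raised to the floor it differed by 0.30 and did not pass (adjusted p = 0.345). None of 6 primitive endoderm or 3 neural markers passed. When P19 replicates 4 and 5 were left out, 2 trophoblast, 1 primitive endoderm and 1 neural marker rose and 2 fibroblast markers fell. Of all genes, 4.46% passed over all replicates and 19.6% with P19 replicates 4 and 5 left out. The mean of the 9 trophoblast markers over the floor spanned -0.03 to 1.02 on P19 arrays against 0.15 to 0.79 on those of P19CL6, and that of the 7 fibroblast markers -1.22 to -0.12 against -1.31 to -0.55, with Col3a1, Postn and Lum never above the floor. The part of these in the Klf5 result was not tested.

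Tfcp2l1, a CP2-family factor that STAT3 induces, was above the floor on 1 array, CL6G45 replicate 5, at 4.75 by probe set 1418091_at. Its probe sets 1460714_at and 1460715_x_at were never above the floor. Zfp42, a zinc finger protein related to Yy1, had a highest signal of 3.74 over 30 arrays. Fbxo15, an F-box protein gene bound by Pou5f1 and Sox2, was above the floor in P19 replicate 2 at 4.84, CL6G36 replicate 2 at 4.64 and CL6G45 replicate 4 at 5.15. Its strain means lay between 3.50 in CL6G45 and 4.17 in P19. These 3 genes and Klf4 gave no strain in which a majority of arrays was above the floor, and none was tested.

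Read from 1 probe set per gene, at most 1 naive factor passed in any comparison. In P19CL6 against P19, 1 of 4 tested genes passed at an adjusted p under 0.05 (Klf5, lower), against 4.46% of all genes tested. Without P19 replicates 4 and 5 it was again Klf5 alone, against 19.6% of all genes. CL6G26 had 0 of 4 against 1.24%, CL6G36 0 of 4 against 13.5%, and CL6G52 0 of 4 against 3.18%. At an unadjusted p under 0.05 in limma, each of these 3 comparisons had 0 of 4 as well. Of all 13181 genes tested, 1417 were under it in CL6G26, 3314 in CL6G36 and 2017 in CL6G52. CL6G45 had 1 of 4 (Tbx3, lower) against 13.3%, and 2 of 4 at an unadjusted p under 0.05, against 3338 of 13181 genes. Among the 4 sublines, 0 of 4 genes passed the limma F test, against 23.2% of all genes, where Tbx3 was read from its MOE430A probe set. Without CL6G52 replicate 1, 0 of 4 passed in CL6G52, against 4.89%. With 4 genes, 1 call more or fewer moves the share by more than the gap to most of these backgrounds. Klf2 was the 1 gene of 4 whose arrays did not overlap between P19CL6 and P19 (2.23% of all genes), between CL6G36 and P19CL6 (12.3%) and between CL6G52 and P19CL6 (4.89%). For CL6G26 and CL6G45 it was 0 of 4, against 4.15% and 13.7%. The 4 comparisons of sublines share the P19CL6 arrays. The median difference of the 4 genes was -0.19, -0.12, -0.12, -0.37 and -0.23 in P19CL6, CL6G26, CL6G36, CL6G45 and CL6G52, beside medians over all genes of 0.01, -0.01, -0.00402, 0.00336 and -0.01.

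**Figure D5:**
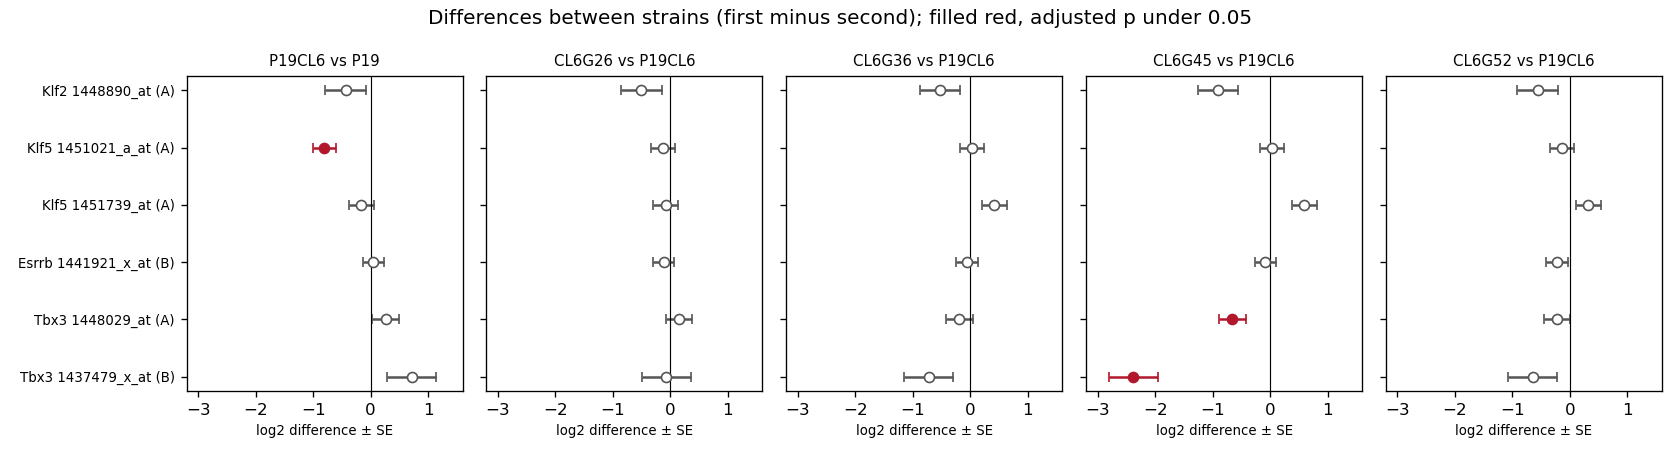
Points are log2 differences of mean signal (first strain minus second) and bars their SE, for the 6 tested probe sets in 5 comparisons, with red where the adjusted p was under 0.05. Red points are Klf5 1451021_a_at in P19CL6 against P19 and both Tbx3 probe sets in CL6G45 against P19CL6.

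Of the 10 genes of LIF and STAT3 signalling, 8 were tested. Of these 8 tested LIF and STAT3 genes none passed in P19CL6, CL6G26 or CL6G45, and 1 fell in CL6G36 and in CL6G52. That was Pim1, a kinase gene that STAT3 induces, which fell by 0.72 ± 0.16 (limma, adjusted p = 0.00137) and by 0.64 ± 0.16 (adjusted p = 0.0143). Of all genes, 4.46% passed in P19CL6, 1.24% in CL6G26, 13.5% in CL6G36, 13.3% in CL6G45 and 3.18% in CL6G52. Over all replicates Lifr, Il6st, Stat3 and the feedback inhibitor Socs3, the last above the floor on 14 of 30 arrays, passed in no comparison, with Stat3 between -0.15 and 0.29. In P19CL6 against P19 without P19 replicates 4 and 5, 3 of 8 fell, Lifr by 0.99, Il6st by 0.39 and Pim1 by 0.61 (limma, adjusted p = 0.000291, 0.0396 and 0.00629). Of all genes, 19.6% passed with these replicates left out, a choice that favours larger differences.

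Tcf7l1, the repressor that Wnt signalling removes from naive genes, passed in no comparison, with 0.38 in CL6G36 (limma, adjusted p = 0.0502). Without P19 replicates 4 and 5 it was lower in P19CL6 than in P19 (-0.48 ± 0.12, limma, adjusted p = 0.00224). Of 8 tested regulators that restrain the naive network, 1 rose in P19CL6 (Flcn, by 0.54), 1 in CL6G36 (Zfp281, by 0.31) and 1 in CL6G45 (Ctbp2, by 0.67). None fell, and none passed in CL6G26 or CL6G52. Of all genes, 4.46%, 13.5% and 13.3% passed in P19CL6, CL6G36 and CL6G45, and 1.24% and 3.18% in CL6G26 and CL6G52. In P19CL6, leaving out P19 replicates 4 and 5, 1 of the 8 rose and 2 fell, where 19.6% of all genes passed.

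Of the core factors, Pou5f1 and Sox2 passed in no comparison over all replicates. Without P19 replicates 4 and 5, Pou5f1 was 0.20 higher in P19CL6 than in P19 and Sox2 differed by -0.51 (limma, adjusted p = 0.0178 and 0.00552). Without CL6G52 replicate 1, Pou5f1 was lower in CL6G52 than in P19CL6 (-0.25, limma, adjusted p = 0.00353). Nanog fell in CL6G36 by 1.10 ± 0.12, in CL6G45 by 1.02 ± 0.12 and in CL6G52 by 0.66 ± 0.12 (limma, adjusted p = 3.5e-08, 2.97e-07 and 0.000575), and was -0.01 in CL6G26. Of 12 other naive network genes tested, Nanog counted among them, 0 rose and 1 fell in P19CL6, Mybl2 (-0.42, limma, adjusted p = 0.0454). Tdgf1 rose by 0.58 and Mybl2 fell by 0.68 without P19 replicates 4 and 5 (limma, adjusted p = 5.87e-06 and 1.57e-05). Of all genes, 4.46% passed in P19CL6 over all replicates and 19.6% without P19 replicates 4 and 5. In CL6G36 1 of the 12 rose and 2 fell, in CL6G45 0 and 3, and in CL6G52 0 and 2. There 13.5%, 13.3% and 3.18% of all genes passed. Tdgf1, a Nodal co-receptor, fell in these 3, by 0.37, 0.35 and 0.54.

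Genes of the primed and formative epiblast changed in both directions in CL6G36, CL6G45 and CL6G52. Of 19 tested, 3 rose and 7 fell in CL6G36, 5 rose and 5 fell in CL6G45 and 4 rose and 5 fell in CL6G52. CL6G26 had 2 and 1, and P19CL6 against P19 1 and 1. Of all genes, 13.5% passed in CL6G36, 13.3% in CL6G45, 3.18% in CL6G52, 1.24% in CL6G26 and 4.46% in P19CL6. Fst, an activin antagonist, fell by 2.99, 2.77 and 2.84 in CL6G36, CL6G45 and CL6G52, and Nodal by 0.91, 0.75 and 0.62. Utf1, a chromatin factor of pluripotent cells, rose by 0.55 in CL6G36 and 0.68 in CL6G45. Fgf5, the classical marker of the implanted epiblast, fell in CL6G36 by 0.82 ± 0.15 (limma, adjusted p = 0.000266). Otx2 rose in P19CL6 against P19 by 0.33 ± 0.08 (limma, adjusted p = 0.0166). Like every call in that comparison, it was lost when P19 replicate 1, 2 or 3 was left out. Without CL6G52 replicate 1, 4 of the 19 rose and 8 fell in CL6G52, where 4.89% of all genes passed. Without P19 replicates 4 and 5, 4 of the 19 rose and 6 fell in P19CL6, where 19.6% of all genes passed.

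Of 17 Klf and Sp genes tested, relatives of the Krüppel-like members, most passed in no comparison. In CL6G36 3 rose and 1 fell, where 13.5% of all genes passed, and in CL6G45 5 rose and 1 fell, where 13.3% did. Klf6 rose by 0.54 and 0.61, Klf11 by 0.68 and 0.56, and Klf9 by 0.30 and 0.38. The one that fell was Sp5, a Wnt target, which also fell in CL6G52. Sp5 was above the floor on all 5 P19CL6 arrays and on no array of these 3 sublines. There it was at least 3.29-fold lower, the mean of P19CL6 against the floor. The limma adjusted p of 1.36e-07, 4.33e-07 and 2.90e-09 is for the measured differences and not for this bound. Their size rests on signals under the floor. None of the 17 passed in P19CL6 or CL6G26 over all replicates, with 2 and 4 at an unadjusted p under 0.05. Of all 13181 genes tested, 2617 and 1417 were under it there, and 4.46% and 1.24% passed. With signals raised to the floor, Sp5 passed in CL6G26 (-1.34, limma, adjusted p = 0.00905) and Klf15 in CL6G36 (0.73, adjusted p = 0.0215). In P19CL6 without P19 replicates 4 and 5, Klf15 rose by 1.65 and Klf10 fell by 0.70 (limma, adjusted p = 2.49e-05 and 0.00382). Of 14 tested paralogues of the other members, 1 rose and 1 fell in P19CL6 against P19, Tbx1 (0.99) and Grhl2 (-0.73). Leaving out P19 replicates 4 and 5, 3 rose and 1 fell, with Tbx1 at 1.64, Fbxo6 at 2.33, Grhl3 at 1.24 and Grhl2 at -1.08 (limma, adjusted p = 7.58e-11, 8.63e-05, 0.0423 and 3.77e-08). Fbxo6 and Grhl3 were each above the floor on part of the P19 arrays, 2 and 1 of 5. Of all genes, 4.46% passed in P19CL6 over all replicates and 19.6% without P19 replicates 4 and 5. In CL6G45 and CL6G52, where 13.3% and 3.18% of all genes passed, Fbxo6 alone fell. It was above the floor on 2 of 5 CL6G45 arrays, and with signals raised to the floor it differed by -0.74 (limma, adjusted p = 0.00939). In CL6G52 it was above the floor on 0 of 5 arrays and at least 1.84-fold lower, the mean of P19CL6 against the floor. The limma adjusted p of 0.0329 there is for the measured difference of -1.67 and not for this bound.

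Genes with a profile most like that of a naive factor were ranked by Pearson's r over the 30 arrays of a type, which share strain and replicate, and r is given as a description. For Klf5 they were Brpf1 (0.84), Pmm1 (0.83) and Elp5 (0.81), where the 99th percentile over genes was 0.66. In P19, Brpf1 stood at 8.15, 7.95 and 7.93 in the first 3 replicates, but at 7.33 and 7.27 in the others. For Tbx3 by 1448029_at they were Ttll3 (0.71), Col4a2 (0.69) and Nudcd3 (0.68), with a 99th percentile of 0.54. For Esrrb they were Col6a4 (0.60), Zfp420 (0.60) and 4930407I10Rik (0.58), with a 99th percentile of 0.45. Outside the rule, after their values were seen, Nr0b1 and Klf2 were ranked too. Nr0b1 was most like Gdf3 (0.82), a TGF-beta ligand of pluripotent cells, Phb2 (0.82) and Cops7a (0.81), and Klf2 was most like Peg10 (0.74), Hrh3 (0.73) and Msx1 (0.72). CL6G45 replicate 1, the lowest array for Klf2 at 1.80, was also the lowest for these 3 genes, at 1.49, 1.49 and 2.91. How far the r values for Klf2 rest on that array was not tested.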

How the data were processed

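The authors deposited 1 linear signal intensity per probe set and array, made with GCOS (no version stated) per the submitters' processing notes. Its scaling target is not stated. No column was left without a sample. CEL files were not used here. The 64 control probe sets of each array type were left out. Trimmed mean signals differed between arrays by up to 34.9% and 25.1% of their mean, over a limit of 5%, so arrays were quantile normalized within each type. After a lower limit of 1, signals were put on the log2 scale. Probe sets above the floor on at least 5 of 30 arrays were tested (15068 and 12131 on the array types). The brightest tested probe set stood for a gene, MOE430A first and the _x_at kind last. Tests were two-sided in limma 3.58.1 (R 4.3.3), on strain means over 30 arrays with 24 residual degrees of freedom, eBayes with a trend. P-values were adjusted by Benjamini-Hochberg within each array type. The procedure was run on simulated data with independent noise and changes planted in P19CL6 alone. No simulated replicate was made to resemble another strain, so that run does not cover this feature of the arrays.

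The genes, lists, tests and alternatives were chosen with earlier results of these data known, and the lists are not independent evidence. Named genes were all 9 naive factors with all probe sets, up to 4 genes per list with the smallest adjusted p, Pou5f1, Nanog, Sox2, Tcf7l1, Stat3, Lifr, Il6st, Fgf5, Otx2 and Socs3, and the 3 genes most like each naive factor that was above the floor on all arrays or passed a test; genes named only for being on all arrays or never above the floor, and Klf10, Klf15 and Grhl3, named after their values were seen, stand outside it. Raising signals to the floor for genes other than the naive factors was also chosen after seeing the data. Probe sequences were not used here. Promoters were taken from RefSeq.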

Additional observations from a re-analysis of the deposited data

Results flagged for a closer look

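In 42 groups of 5 arrays, the highest or lowest array stood apart from the others by Dixon's criterion in 4, where chance gives about 1 in 20 groups. Klf2 1448890_at was at 1.80 in CL6G45 replicate 1, with the nearest array at 4.42. Klf5 1451739_at was at 5.22 in P19CL6 replicate 3, with the nearest at 4.79. Tbx3 1448029_at was at 4.15 in CL6G52 replicate 1, with the nearest at 5.00. Tbx3 1437479_x_at was at 2.54 in P19 replicate 3, with the nearest at 4.06. The difference between sublines was tested directly for Tbx3 1437479_x_at, with an adjusted p of 0.00255 in limma's F test, and with 0.162 when signals were raised to the floor.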

How the results depend on the processing

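Of 1518 recomputed values of single probe sets, 1440 kept their direction and side of the threshold, 31 lost a call, 27 gained one and 20 turned direction. The count in P19CL6 against P19 (1 gene) was 0 with the deposited scaling, the mean of probe sets and the compared strains alone, and 2 with signals raised to the floor (Klf2, Klf5) and with the added filter of 3 arrays without P19 replicates 4 and 5 (Klf5, and Nr0b1, whose call the choice of arrays fixes and which is no finding). For CL6G36 (0) it was 1 (Klf2) with signals raised to the floor and with the strains alone, and for CL6G52 (0) it was 1 (Klf2) with signals raised. For CL6G45 (1) it was 0 with the deposited scaling, an offset of 16, signals raised, no filter and the strains alone. Among the sublines (0) it was 1 (Tbx3) with median scaling, an offset of 16, the filter of 15 arrays, the mean of probe sets, robust eBayes and without P19 replicates 4 and 5. Leaving out single replicates gave 0 to 1 for P19CL6 (0 without P19 replicate 1, 2 or 3), 0 to 2 for CL6G45 (2 without CL6G45 replicate 5) and 0 to 1 among the sublines (1 without P19 replicate 3, CL6G26 replicate 5, CL6G45 replicate 2 or 5, or CL6G52 replicate 1). Of the 4 genes that all 5 arrays of some strain put above the floor, 1 (Esrrb) was left with the floor 10 percentiles higher. With the replicate block the count was 0 in CL6G45 (Tbx3 1448029_at, limma, adjusted p = 0.0651) and no other call changed (Klf5, adjusted p = 0.0192). Same-numbered arrays correlated between -0.15 and 0.11 on MOE430A, with a median of -0.0055 against 0.0011 for arrays of other numbers. On MOE430B the range was -0.044 to 0.058 and the medians were -0.00068 and 0.00026. Such values cannot tell whether the numbers pair arrays across strains, which the labels do not state.

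These directions turned, none past the threshold. With the deposited scaling, Klf5 1451021_a_at was 0.0093 and 1451739_at 0.070 in CL6G26, and Esrrb 0.087 in CL6G45 and 0.075 in CL6G52. With signals raised, Klf5 1451739_at was 0.082 in CL6G26, and with the mean of probe sets Klf5 1451021_a_at was 0.093 in CL6G52. Without P19 replicates 4 and 5, Esrrb was -0.13 in P19CL6. Leaving out single replicates gave -0.083 to 0.19 for Esrrb in P19CL6 and -0.16 to 0.032 in CL6G36, -0.070 to 0.11 for Klf5 1451021_a_at in CL6G36 and -0.019 to 0.11 in CL6G45, -0.25 to 0.13 for Klf5 1451739_at in CL6G26, and -0.19 to 0.10 for Tbx3 1437479_x_at in CL6G26. The cause of these changes was not tested. Signals near the floor limit Klf2, Klf5 and Tbx3: with the floor 10 percentiles higher, they were above it on 4, 9 and 4 of 30 arrays.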

Other observations

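The 3 genes most like Nr0b1, Gdf3, Phb2 and Cops7a, lie on the same chromosome in RefSeq's gene order, with 34 protein-coding genes between Gdf3 and Phb2 and 16 between Phb2 and Cops7a. In P19, Gdf3 stood at 9.25, 9.27 and 9.18 in the first 3 replicates, but at 7.88 and 7.85 in replicates 4 and 5. Phb2 stood at 10.92, 10.99 and 10.95 in the first 3 and at 10.35 and 10.39 in the others, and Cops7a at 9.47, 9.50 and 9.47 against 8.88 and 8.86. The pairs of genes most like Klf2, Klf5, Tbx3 and Esrrb lie on different chromosomes.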
